A study of Ovis aries and Mus musculus with 20 samples.

Results

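The very long topologically associating domains (TADs) of sheep visceral fat were defined by length alone, as TADs of at least 1.5 Mb from start to end. The lists of the greater omentum (GOM), the mesenteric adipose (MAD) and the retroperitoneal adipose (RAD) held 149 such TADs of 4387, 171 of 4166 and 169 of 4187, which made 489 of 12740 TADs in all. The tissue came from 3 adult female Small-tail Han sheep aged 2 years, with no transgene and no treatment named in the labels. Each of the 3 depots was sampled from each animal, so that 9 *in situ* Hi-C libraries entered the comparison, 3 per depot. The assay joins pieces of chromatin that touch in the nucleus and reads the joined pairs by sequencing. The protocol kept the layer that holds the adipocytes and names no sort of cells, so every value is an average over the cells of a sample.

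TADs are stretches of chromatin that contact themselves more than their neighbours, and their boundaries in mammals are often held by the insulator protein CTCF and by cohesin. On a larger scale chromatin divides into an A compartment, open and rich in genes, and a B compartment, closed, poor in genes and often near the nuclear lamina. The A-B index used here gives the compartment as a signed score for each 20-kb bin: the contact of the bin with A regions minus its contact with B regions of the same chromosome. Positive values mark A and negative values B. TADs were called once per depot on a map that merged its 3 libraries, whereas the index was deposited for each library. Lengths and overlaps therefore carry no replicate error, and the index does.

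The very long TADs had a median length of 1800 kb in GOM and 1820 kb in MAD and RAD, against 480, 500 and 500 kb over all TADs of the same lists. They covered 11.7%, 13.6% and 13.6% of the total TAD length of GOM, MAD and RAD. Of them 46, 51 and 62 reached 2 Mb, and 11, 15 and 12 reached 3 Mb. All positions below are those of the sheep assembly Oar_rambouillet_v1.0. The longest in each depot lay at one place of chromosome 6, from 55340001 to 61080000 in GOM (5740 kb), from 55360001 to 61020000 in MAD (5660 kb) and from 55340001 to 61060000 in RAD (5720 kb). Its mean A-B index in GOM was -3.54, -3.40 and -3.18 in sheep 1, 2 and 3, and every bin of it was in B.

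The next longest lay on the same chromosome, from 84140001 to 89020000 in GOM (4880 kb), 83580001 to 89000000 in MAD (5420 kb) and 83580001 to 89020000 in RAD (5440 kb). Its mean index was -3.78 ± 0.29 (SD, n = 3) for the GOM list, -3.23 ± 0.40 for MAD and -3.84 ± 0.45 for RAD. A TAD on chromosome 1 from 85440001 to 89680000 in GOM measured 4240 kb, and its MAD and RAD counterparts measured 4220 and 4240 kb. The other TADs among the longest 5 of a depot were on chromosome 23 (30840001 to 34540000 in GOM, 3700 kb, 3640 kb in MAD and 3740 kb in RAD), on chromosome 9 in GOM (70960001 to 74680000, 3720 kb) and on chromosome 5 in MAD and RAD (80220001 to 83900000, 3680 kb, and 80220001 to 83880000, 3660 kb). The lowest of these was the TAD of chromosome 9, with -5.08, -4.89 and -4.81 in the 3 GOM libraries. All of these longest TADs lay in B in every library of every depot, and 91.9% to 100% of their bins had a negative mean index.

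The A-B index of the very long TADs was set against that of the 2390, 2172 and 2201 TADs of 360 to 700 kb in the same lists, a length class around the median. The index had no part in the choice of the TADs. In each library the index was averaged over the bins of a TAD and then over TADs. In GOM the very long TADs had a mean index of -2.82, -2.75 and -2.61 in sheep 1, 2 and 3, and the mid-length TADs 0.756, 0.935 and 0.677. In MAD these were -2.45, -2.33 and -2.63 against 0.969, 0.928 and 0.975. In RAD they were -2.64, -2.70 and -2.89 against 0.806, 0.674 and 0.789. Very long TADs were thus on the B side and mid-length TADs on the A side in every library, and the values of the 2 classes did not overlap.

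The difference, very long minus mid-length, was -3.51 ± 0.206, -3.43 ± 0.173 and -3.50 ± 0.158 in GOM, MAD and RAD (SD, n = 3 libraries each). Over all 9 libraries it was -3.48 ± 0.161, with p = 0.00391 in a two-sided exact sign-flip test, the smallest value that 9 libraries can give. Within 1 depot the smallest p that 3 libraries allow is 0.25, and each depot was at it. The 9 libraries come from 3 animals, and with the differences averaged over the depots of an animal, as a replicate block, the difference of -3.48 again had the smallest p of that design, 0.25. The difference was of nearly the same size in each depot.

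**Figure D1:**
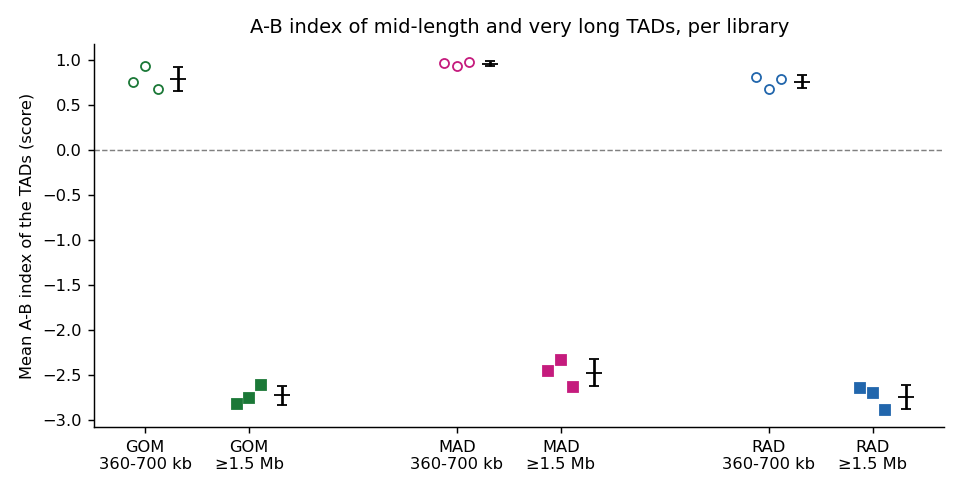
Mean A-B index (score, vertical axis) of TADs of 360 to 700 kb (open circles) and of at least 1.5 Mb (filled squares) in each library of GOM, MAD and RAD, with mean and SD over 3 libraries beside the points. The mid-length TADs lie between 0.674 and 0.975 and the very long TADs between -2.89 and -2.33.

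Counted one by one, 135 of 149 very long TADs in GOM (90.6%), 152 of 171 in MAD (88.9%) and 153 of 169 in RAD (90.5%) had a mean index below 0. Among mid-length TADs the shares were 36.7%, 35.0% and 36.8%. The sign was the same in all 3 libraries of the depot for all but 4, 4 and 2 of the very long TADs. Their index spread less than that of the mid-length TADs, from -6.46 to 3.44 in GOM, -6.28 to 3.65 in MAD and -6.38 to 3.93 in RAD, whereas the mid-length TADs ran from -23.2 to 9.82, -28.2 to 9.53 and -23.5 to 10.0. The median very long TAD had 98.1%, 97.7% and 97.6% of its bins in B, against 10.0%, 8.70% and 11.5% for mid-length TADs, and 52, 60 and 53 of the very long TADs had a negative mean in every bin.

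The index fell with length above 700 kb. In GOM it was 0.971 ± 0.108 for TADs under 200 kb, 0.524 ± 0.137 from 200 to 340 kb, 0.789 ± 0.132 from 360 to 700 kb, -0.475 ± 0.0733 from 720 to 980 kb, -1.47 ± 0.0753 from 1000 to 1480 kb, -2.65 ± 0.0936 from 1500 to 1980 kb and -2.90 ± 0.142 for those of 2000 kb or more (SD, n = 3). In MAD the last 4 classes had 0.0110 ± 0.0159, -0.941 ± 0.0682, -2.34 ± 0.132 and -2.77 ± 0.199, and in RAD -0.289 ± 0.0596, -1.30 ± 0.0667, -2.57 ± 0.104 and -3.04 ± 0.173. The share of TADs in B rose from 36.7% in the mid-length class of GOM to 71.6% from 1000 to 1480 kb and 95.7% at 2000 kb or more. Across the TADs of a list, which are not independent of their neighbours, the rank correlation of length with index was -0.209, -0.172 and -0.181 in GOM, MAD and RAD. Just inside the threshold, TADs of 1500 to 1580 kb had a mean index of -2.75 in GOM (31 TADs), -2.42 in MAD (35) and -1.95 in RAD (25), and just outside it, TADs of 1400 to 1480 kb had -2.02 (27), -0.477 (34) and -0.968 (34).

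**Figure D2:**
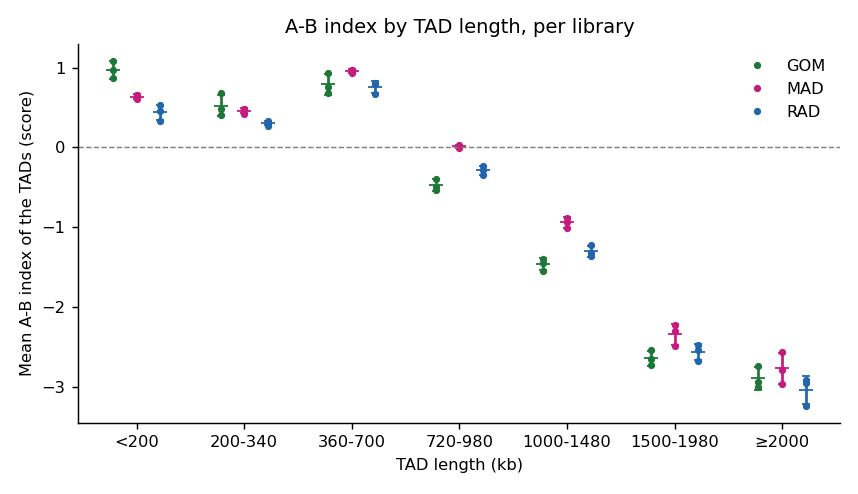
Mean A-B index (score, vertical axis) by TAD length (kb, horizontal axis) in each library, with mean and SD over 3 libraries per depot. The 3 classes up to 700 kb stay above 0 and the index falls with each longer class, to -2.90, -2.77 and -3.04 in GOM, MAD and RAD at 2000 kb or more.

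The very long TADs were found on each of the 26 chromosomes of the table. They took the largest mean share of chromosome 6 (21.0% of its length over the 3 depots) and chromosome 10 (20.2%), and the smallest of chromosome 11 (3.71%). Within a chromosome and depot they had a lower index than the mid-length TADs in 74 of 78 cases, with a median difference of -3.65. The 4 exceptions were chromosome 11 in each depot, which held 1, 1 and 2 very long TADs with a mean index of 0.454, 0.696 and 1.57, and chromosome 14 in MAD, with 2 TADs and 0.354. By midpoint they did not gather at chromosome ends. The midpoint lay within the outermost 5% of a chromosome on either side for 6.04%, 5.85% and 5.92% of them, against 9.37%, 9.67% and 9.09% of mid-length TADs. The midpoint of a longer TAD cannot lie as near to an end, which lowers the share of the very long TADs.

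Around their ends the index changed in a step. In GOM the bins 120 kb outside a very long TAD had a mean index of -0.642 ± 0.0768, the boundary bin -1.88 ± 0.0930, the bins 100 kb inside -2.16 ± 0.0813 and those 700 kb inside -3.04 ± 0.140 (SD, n = 3 libraries). In MAD the same positions had -0.349 ± 0.0751, -1.59 ± 0.0981, -1.92 ± 0.152 and -2.73 ± 0.187, and in RAD -0.586 ± 0.0751, -1.74 ± 0.0212, -2.13 ± 0.0757 and -3.07 ± 0.177. Farther out the index went down again, to -1.01, -0.878 and -1.06 in GOM, MAD and RAD at 500 kb. No position within 500 kb outside had a mean above 0 in any depot, so the flanks of these TADs were on average in B as well. The mean over mid-length TADs showed no such step, with 0.583, 0.70 and 0.808 in GOM at 120 kb outside, at the boundary and at 100 kb inside. In GOM 878 of them were in B and 1512 in A, so steps of opposite direction can cancel in that mean. The TADs directly next to the very long ones were of ordinary size, with median lengths of 480, 500 and 530 kb, and had a median index of -0.928, -0.540 and -0.779. Only 18 of 149, 24 of 171 and 19 of 169 very long TADs had a higher index than the mean of their neighbours.

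**Figure D3:**
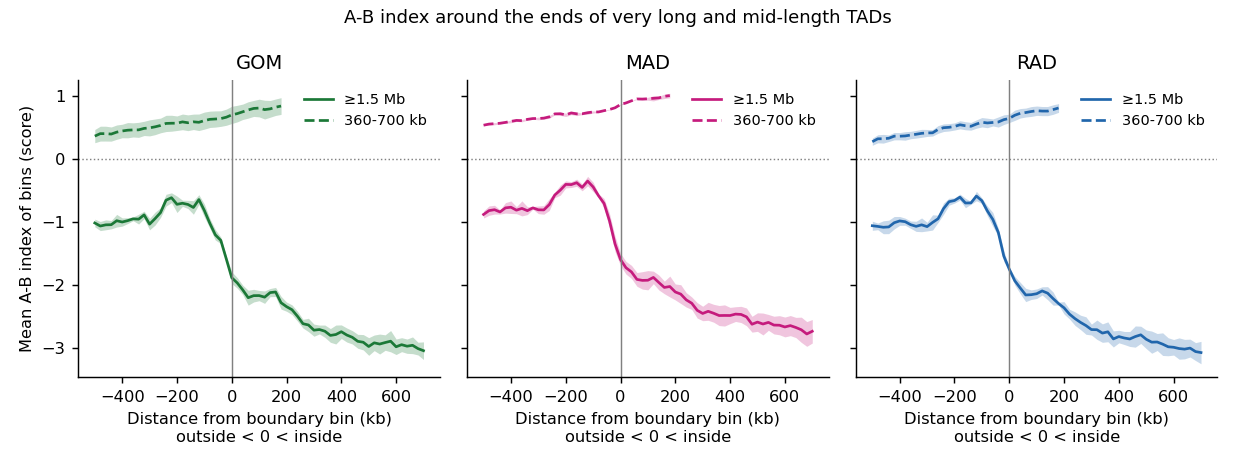
Mean A-B index (score, vertical axis) of the bins around TAD ends by distance from the boundary bin (kb, horizontal axis, negative outside and positive inside), for very long (solid) and mid-length TADs (dashed) of each depot, with bands of 1 SD over 3 libraries. The index of very long TADs drops from -0.642, -0.349 and -0.586 at 120 kb outside to -3.04, -2.73 and -3.07 at 700 kb inside in GOM, MAD and RAD, and that of mid-length TADs stays between 0.275 and 1.01.

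A minority of the very long TADs lay in A: 14, 19 and 16 in GOM, MAD and RAD. The highest was on chromosome 12 from 1580001 to 3140000 in RAD, with an index of 3.93 ± 0.18 (SD, n = 3). A TAD on chromosome 1 from 216580001 to 218100000 was listed with identical ends in the 3 depots and had 3.44 ± 0.40 in the GOM libraries, 3.65 ± 0.27 in those of MAD and 2.75 ± 0.17 in those of RAD. Another on chromosome 1, from 285020001 to 286580000 in RAD, had 3.51 ± 0.41. These TADs were near the threshold in length, at 1560, 1520 and 1560 kb. None of the very long TADs in A reached 3 Mb, and the longest, on chromosome 5 from 26380001 to 29360000 in GOM (2980 kb), had an index of only 0.39 ± 0.16.

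Overlapping very long TADs of the 3 depots were joined into 213 loci of 441.8 Mb in all, 16.6% of the bins of the table. At 115 loci (54.0%) all 3 depots had a very long TAD, at 42 loci 2 depots did, and at 56 loci (26.3%) only 1 did. By length, 228.54 Mb (51.7%) were inside a very long TAD in each of the 3 depots, 85.14 Mb (19.3%) in 2 and 128.12 Mb (29.0%) in 1. Of the length in GOM, 82.6% was also in a very long TAD of MAD and 84.3% in one of RAD. The shares of the MAD length were 71.1% in GOM and 80.1% in RAD, and those of the RAD length 72.9% in GOM and 80.3% in MAD. Loci with a very long TAD in all 3 depots had a mean index of -2.74 over the 9 libraries, and those with one in GOM, MAD or RAD alone -1.75, -1.99 and -1.49.

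At the 56 loci that were very long in 1 depot, each other depot had a median of 2 TADs, and the longest of these had a median of 1140 kb. It reached 1 Mb in 84 of 112 cases. A single TAD overlapped the locus in 1 and 2 of the 23 loci of MAD alone (in GOM and RAD), and in 0 of the loci of GOM or RAD alone. Any TAD that overlapped a locus was counted, also one that ran past its end. The longer of 2 parts of a locus of at least 1.5 Mb is long by itself. These lengths therefore do not show that the other depots came close to the threshold.

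Very long TADs were found again with both ends less often than mid-length TADs. A TAD was counted as found again when both of its ends lay within 1 bin (20 kb) of the ends of a TAD in the other depot. For very long TADs this held for 69 of 149 from GOM in MAD (46.3%), 85 of 149 from GOM in RAD (57.0%), 71 of 171 from MAD in GOM (41.5%), 87 of 171 from MAD in RAD (50.9%), 84 of 169 from RAD in GOM (49.7%) and 87 of 169 from RAD in MAD (51.5%). The corresponding shares of mid-length TADs were 73.7%, 78.9%, 80.4%, 80.8%, 85.5% and 80.2%. Pooled over the 6 directions the shares were 49.4% (95% Wilson interval 46.3% to 52.5%) and 79.8% (79.1% to 80.5%). These intervals cover counting error only, and TADs of one place enter them more than once.

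Single ends were shared more often than pairs of ends. Of the ends of very long TADs, 83.9% (82.2% to 85.5%) lay within 1 bin of a boundary of the other depot, against 90.0% of the ends of mid-length TADs. With a looser rule, a reciprocal overlap of at least 80%, 69.6% of very long and 87.4% of mid-length TADs had a counterpart. At a reciprocal overlap of 50% the order turned, with 96.6% of very long and 95.1% of mid-length TADs. The median of the best reciprocal overlap was 95.1% to 98.7% over the 6 directions for very long TADs and 95.8% to 96.7% for mid-length TADs, and it was higher for very long TADs in 5 of 6. Which class overlapped less thus depended on the measure: pairs of ends at a fixed tolerance and overlap of at least 80% were rarer in very long TADs, and the median overlap was not lower. A shift of 1 bin takes a smaller share of a very long TAD than of a mid-length one. Reciprocal overlap thus favours the very long TADs at an equal shift, and its median does not compare the precision of the ends.

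Mid-length TADs with a mean index of -2 or lower, a class added after the data had been seen, gave a share between those of the other classes for pairs of ends. Both of their ends were found again in 65.0% of cases (63.1% to 66.8%), and 81.4% (80.3% to 82.4%) of their single ends were, with an interval that overlaps that of the very long TADs. The 98 comparisons of very long TADs in A gave 57.1% for both ends (47.3% to 66.5%) and 93.4% for single ends (89.0% to 96.1%).

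The other side of the overlap is division, a boundary of another depot more than 1 bin inside a TAD. MAD divided 51 of the 149 very long TADs of GOM (34.2%) and RAD 39 of them (26.2%). GOM divided 80 of the 171 of MAD (46.8%) and RAD 57 (33.3%). GOM divided 71 of the 169 of RAD (42.0%) and MAD 59 (34.9%). Mid-length TADs were divided in 5.31% to 9.44% of cases. Pooled, the shares were 36.5% (33.5% to 39.6%) and 7.12% (6.70% to 7.57%), and 12.8% (11.5% to 14.1%) for mid-length TADs of low index.

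A longer TAD has more room for a boundary. The length rule also picks stretches of at least 1.5 Mb where the listing depot called no boundary. Boundaries of the other depots inside them are thus partly expected from the rule. Boundaries within 1 bin of an end were left out of the counts, but the full length was used. This lowers the density of mid-length TADs more than that of very long ones, so the densities do not compare the classes evenly. Per 100 Mb of TAD, the very long TADs held 15.5 to 31.7 boundaries of another depot over the 6 directions, the mid-length TADs 12.1 to 20.6 and the mid-length TADs of low index 22 to 30.2. Direction by direction, the very long TADs held more boundaries per length than the mid-length TADs in 6 of 6 directions, from 20.2 against 17.0 (boundaries of MAD in GOM) to 28.8 against 15.6 (boundaries of GOM in RAD), and fewer than the mid-length TADs of low index in 4 of 6. Boundaries of GOM, the list with the most TADs, were the densest inside the very long TADs of the other depots, with 31.7 per 100 Mb in MAD and 28.8 in RAD, against 19.5 to 21.5 between MAD and RAD and 15.5 to 20.2 for boundaries of MAD and RAD inside those of GOM.

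**Figure D4:**
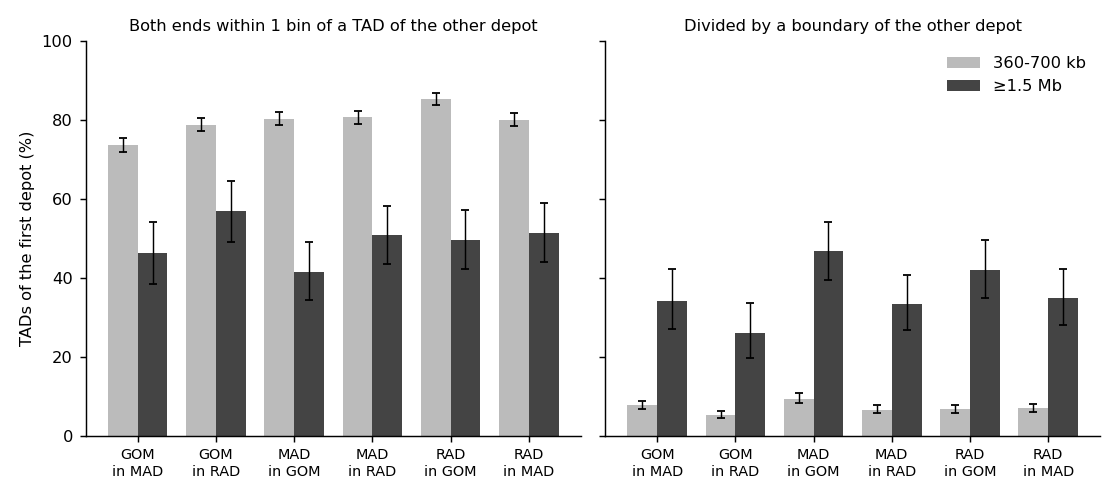
Share of TADs (%, vertical axis) of the first depot that had both ends within 1 bin of a TAD of the second depot (left) or a boundary of the second depot more than 1 bin inside (right), for mid-length (light) and very long TADs (dark), with 95% Wilson intervals. Very long TADs are at 41.5% to 57.0% on the left and 26.2% to 46.8% on the right, mid-length TADs at 73.7% to 85.5% and 5.31% to 9.44%.

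Undivided by either other depot were 86 very long TADs of GOM (57.7%), 80 of MAD (46.8%) and 80 of RAD (47.3%). In GOM these had a mean index of -2.78 and the divided ones -2.64, in MAD -2.46 and -2.48, and in RAD -2.82 and -2.67. Divided TADs were somewhat longer, with medians of 1880, 1860 and 1920 kb against 1740, 1770 and 1800 kb. For mid-length TADs the index did go with division: undivided and divided ones had 0.938 and -0.534 in GOM, 1.09 and 0.0297 in MAD and 0.856 and -0.0178 in RAD.

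In 56 very long TADs of GOM (37.6%) both ends were found again in MAD and in RAD, and 17 of the 56 had identical positions in the 3 lists. They were 1500 to 4240 kb long, with a median of 1750 kb. Their mean index over the 9 libraries was -2.48. In 48 the index was negative in all 9 libraries, in 6 positive in all 9 and in 2 of both signs.

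The longest of these shared TADs was that of chromosome 1 from 85440001 to 89680000, with an index of -3.02, -3.02 and -2.76 in GOM, -2.66, -2.39 and -2.85 in MAD and -2.81, -2.78 and -3.24 in RAD. It was followed by chromosome 5 from 80240001 to 83880000 (3640 kb, mean of 9 libraries -4.02), chromosome 2 from 98420001 to 101860000 (3440 kb, -2.74), chromosome 6 from 51900001 to 55320000 (3420 kb, -3.02) and chromosome 8 from 47940001 to 51160000 (3220 kb, -2.79). The TAD on chromosome 8 had the same positions in the 3 depots and varied little inside, with an SD of 0.519 over its bins and no bin above -0.976. On chromosome 6 the TAD of 3420 kb lay next to the one of 5740 kb, with only the boundary bin between them.

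The remaining shared TADs among the longest 10 were on chromosome 9 from 56620001 to 59420000 (2800 kb, -3.95), chromosome 16 from 68980001 to 71340000 (2360 kb, -1.19), chromosome 14 from 20660001 to 22960000 (2300 kb, -1.31), chromosome 1 from 32840001 to 35020000 (2180 kb, -1.10) and chromosome 10 from 75340001 to 77500000 (2160 kb, -1.17). In the last 4 the MAD libraries were higher than those of GOM and RAD without overlap. Over all 100-kb windows of the table, the 3 MAD libraries lay above the 3 of GOM in 20.2% and above the 3 of RAD in 23.0%. On chromosome 16 the index was -1.94, -1.55 and -1.32 in GOM, -0.475, -0.342 and -0.592 in MAD and -1.22, -1.92 and -1.35 in RAD. Ends within 1 bin of each other in the 3 depots were the rule by which these TADs were listed, not a result.

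Where exactly 1 other depot divided a very long TAD, the dividing depot was GOM for 64 TADs with 52 distinct boundaries, MAD for 42 with 27, and RAD for 23 with 17. In 51, 40 and 22 of these TADs there was a single boundary inside. Some of the boundaries were displaced ends rather than divisions near the middle: 16 of 52, 11 of 27 and 7 of 17 lay within 100 kb of the nearer end. The median distance from the nearer end was 370, 260 and 200 kb, and the largest 1260, 1600 and 1580 kb. The third depot had the TAD undivided and with the same ends in 45, 37 and 16 cases.

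The longest TADs that GOM alone divided were the MAD and RAD TADs of chromosome 6 from 83580001, where GOM had a boundary bin from 84120001 to 84140000, 560 kb inside. On chromosome 2 from 103840001 to 107260000 (3420 kb in MAD, 3400 kb in RAD), GOM had boundaries at 105080001 to 105100000 and 106560001 to 106580000, which left parts of 1220, 1460 and 680 kb. The fifth was a RAD TAD of chromosome 5 from 74960001 to 77540000 (2580 kb) with a GOM boundary at 76500001 to 76520000, and MAD had this TAD with both ends.

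MAD alone divided the GOM and RAD TADs of 5740 and 5720 kb on chromosome 6, but its boundary at 61020001 to 61040000 was only 60 and 40 kb from their ends. In the same way it divided the GOM TAD of chromosome 23 from 30840001 to 34540000 at 34480001 to 34500000, 60 kb from the end. A division far from the ends was on chromosome 24 from 4200001 to 7640000 (3440 kb in GOM and RAD), where MAD had a boundary at 6040001 to 6060000, 1600 kb inside.

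RAD alone divided a MAD TAD of chromosome 9 from 71160001 to 74680000 (3520 kb) at 73100001 to 73120000, 1580 kb inside. It divided a TAD of chromosome 1 at 60100001 to 60120000, which ran from 59340001 to 62640000 in GOM (3300 kb) and from 59360001 to 62620000 in MAD (3260 kb). Shorter ones were GOM TADs on chromosome 1 from 191060001 to 193200000 (2140 kb), with the RAD boundary 180 kb inside, and on chromosome 15 from 9040001 to 11100000 (2060 kb), with the boundary 620 kb inside.

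The index on both sides of such a boundary was then compared between the depot that had it and the depots that did not. On chromosome 24 the parts left and right of the MAD boundary had -6.12 and -5.77, -6.51 and -5.99, and -6.14 and -5.80 in the MAD libraries. In GOM, which lacked the boundary, they had -6.59 and -6.10, -6.39 and -5.98, and -6.38 and -5.83. Both parts were deep in B in each library, and the step had the same direction with and without the boundary. On chromosome 1 the parts had -0.828 and -1.30, -1.15 and -1.61, and -1.79 and -2.06 in RAD, which had the boundary, and -1.65 and -1.69, -1.27 and -1.78, and -1.15 and -1.52 in GOM.

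Over all boundaries of this kind the size of the step, without its sign, did not stand apart in the dividing depot. At the 52 boundaries of GOM it averaged 1.36 ± 0.10, 1.27 ± 0.06 and 1.44 ± 0.11 in GOM, MAD and RAD (SD, n = 3 libraries). At the 27 boundaries of MAD it was 1.48 ± 0.08 in MAD, 1.58 ± 0.13 in GOM and 1.66 ± 0.09 in RAD, and at the 17 boundaries of RAD 1.19 ± 0.17 in RAD, 1.14 ± 0.11 in GOM and 1.10 ± 0.05 in MAD. The dividing depot lay between the others at the boundaries of GOM, was the lowest at those of MAD, and was the highest at those of RAD by less than 1 SD. In each of these sets the step was largest in RAD, then GOM, then MAD, whichever depot had the boundary. The index of the boundary bin and its 2 neighbours was close to the mean of the whole TAD, 0.17 ± 0.06 above it in GOM at the boundaries of GOM, 0.32 ± 0.07 above it in MAD at those of MAD, with a difference of -0.0687 ± 0.0448 in RAD at those of RAD. The depots without the boundary gave 0.25 and 0.28, 0.39 and 0.41, and 0.06 and -0.08 at these bins. No test was run on these values, since TADs are not replicates.

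**Figure D5:**
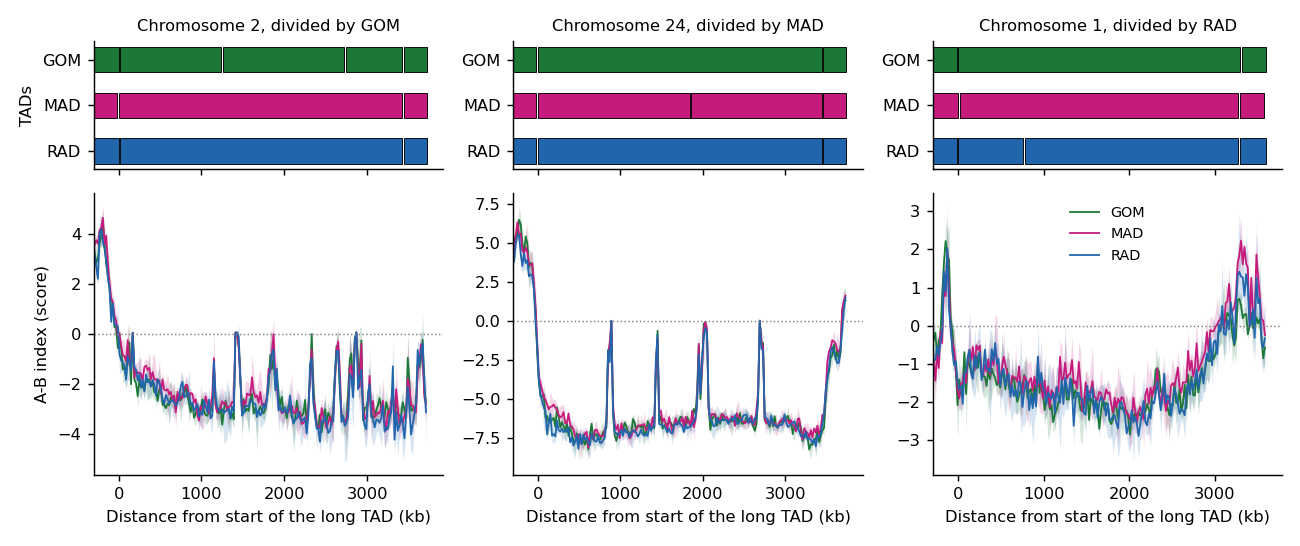
TADs of the 3 depots (bars, top) and A-B index (score, bottom; lines are means and bands the range of 3 libraries) by distance from the start of the long TAD (kb), for the longest TADs that GOM (chromosome 2), MAD (chromosome 24) and RAD (chromosome 1) alone divided at 700 kb or more from an end, with the third depot at the same ends. The index curves of the depots run together across the boundary that only 1 depot has.

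Within the plotted TADs some bins rose toward 0 in all depots. On chromosome 24 the bin 840 kb from the start of the TAD had -2.74 to -1.02 in the 9 libraries and the bin at 1440 kb -1.75 to -0.143. Other bins had nearly one value in all libraries. In the TAD of chromosome 24, where the mean index away from the ends was -6.20, the bin 880 kb from its start had values from 0.0159 to 0.0174 in the 9 libraries and the bin at 2680 kb values from 0.0258 to 0.0290. On chromosome 2 the bins at 1400 and 1420 kb had 0.0428 to 0.0514. Bins within 0.1 of 0 in all 9 libraries made up 0.552% of the bins of very long TADs and 0.908% of the whole table. The files do not say whether such values were measured or filled in, and they are not read as A or B here.

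The index of the 213 loci was then compared between depots, each locus with the same bins in all libraries. Its mean over all bins of the loci, in which longer loci weigh more, was -2.68, -2.61 and -2.47 in GOM, -2.33, -2.19 and -2.48 in MAD and -2.58, -2.64 and -2.82 in RAD, in the order of sheep 1, 2 and 3. MAD was the highest and RAD the lowest on average, and only MAD and RAD did not overlap. The difference of MAD minus GOM was 0.255 (p = 0.2), that of RAD minus GOM -0.0950 (p = 0.5) and that of RAD minus MAD -0.350 (p = 0.1) in two-sided exact permutation tests of 3 against 3 libraries, which cannot go below 0.10. Adjusted over the 3 pairs these became 0.3, 0.5 and 0.3. None of them can thus be called. Taken within animals, RAD minus MAD was -0.256, -0.454 and -0.339 in sheep 1, 2 and 3, lower in 3 of 3, with p = 0.25 in an exact sign-flip test, the smallest that 3 animals allow. MAD minus GOM was 0.350, 0.423 and -0.00878, and RAD minus GOM 0.0944, -0.0312 and -0.348, so neither had 1 direction in all animals. The index of all bins moved in the same direction, with means of -0.184, -0.0366 and -0.273 in GOM, MAD and RAD. Relative to the mid-length TADs of the same library the differences were 0.152, 0.00343 and -0.148, and the sign between RAD and GOM turned.

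Locus by locus, 178 of 213 were in B in all 9 libraries, 19 in A in all 9, and 16 had both signs. Lowest of all was chromosome 24 from 23560001 to 25420000, very long in MAD only, with -6.96, -6.75 and -6.49 in GOM, -5.81, -6.24 and -6.02 in MAD and -6.54, -6.92 and -6.45 in RAD. Next were chromosome 20 from 49160001 to 50820000 and chromosome 7 from 41020001 to 42940000, each with a mean of -6.27 over the 9 libraries and very long TADs in the 3 depots. The highest loci were those of chromosome 12 (mean 3.90) and chromosome 1 (3.54 from 285020001 and 3.28 from 216580001).

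The loci with the largest range of depot means all had MAD at the A end. On chromosome 14 from 20660001 to 22960000 the index was -2.13, -2.45 and -1.40 in GOM, -0.891, 0.604 and 0.922 in MAD and -2.60, -2.08 and -1.73 in RAD. MAD lay above the other depots without overlap, although sheep 1 was well below sheep 2 and 3. On chromosome 10 from 75340001 to 77500000 it was -1.99, -1.83 and -1.75 in GOM, 0.179, -0.0337 and -0.269 in MAD and -1.39, -1.54 and -1.91 in RAD. On chromosome 19 from 3040001 to 4880000, very long in GOM only, it was -2.37, -2.23 and -1.61, -0.203, -0.648 and -0.566, and -1.47, -2.57 and -2.46 in GOM, MAD and RAD. The first 2 of these loci kept a TAD with the same ends in the 3 depots while their depot means spanned 2.35 and 1.82.

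At 5 of the 213 loci, singled out after their values had been seen, the sign separated 1 depot from the others in all libraries. In 4 of them MAD was in A and GOM and RAD in B: chromosome 2 from 242980001 to 244520000 (depot means 0.169 in MAD, -0.267 in GOM and -0.435 in RAD), chromosome 3 from 31360001 to 33060000 (0.356, -0.756 and -0.853), chromosome 3 from 42040001 to 44340000 (0.445, -0.440 and -1.23) and chromosome 8 from 93320001 to 95120000 (0.0436, -0.831 and -0.267). At chromosome 20 from 19600001 to 21600000 GOM was in A (0.204) and MAD (-0.654) and RAD (-0.433) in B. The libraries on the A side lay between 0.0166 and 0.688, and those on the B side between -1.38 and -0.0154. The share of the whole table with such a sign pattern was not counted. By order alone, the 3 MAD libraries all lay above the 3 of GOM in 20.2% of all 100-kb windows. They all lay above the 3 of RAD in 23.0%.

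For a test with all libraries in 1 model, the bins were averaged into windows of 100 kb, which were fitted with limma across the 26570 windows of the table, with Benjamini-Hochberg adjustment over all of them. Between MAD and GOM 470 of the 4250 windows inside the loci (11.1%) passed an adjusted p of 0.05, where 9.51% of all windows did. Between RAD and MAD 446 (10.5%) passed, against a background of 8.89%. Between RAD and GOM no window passed in the loci or in the whole table (0.0%), and 295 of 4250 (6.94%) had an unadjusted p under 0.05, against 9.95% of all windows. The shares inside very long TADs were thus near those of the table as a whole.

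By direction, 379 windows of the loci were higher and 91 lower in MAD than in GOM, where 6.48% of all windows were higher and 3.03% lower. Between RAD and MAD 23 were higher and 423 lower in RAD, where 1.11% of all windows were higher and 7.78% lower. The whole table was shifted in the same directions: the median difference over all windows was 0.154 for MAD minus GOM and -0.220 for RAD minus MAD, and 0.00141 and 0.0221 after quantile normalization of the libraries. After that normalization the counts in the loci were 301 higher and 178 lower in MAD than in GOM, and 72 higher and 246 lower in RAD than in MAD. Over all 26570 windows they were 1342 and 1359, and 718 and 1040. In either direction this was 11.3% of the windows of the loci against 10.2% of all, and 7.48% against 6.62%. Without a model, the 3 MAD libraries all lay above the 3 of GOM in 995 windows of the loci (23.4%, all windows 20.2%) and all below in 287 (6.75%, all windows 8.57%). RAD lay above MAD in 3.32% (all windows 5.29%) and below it in 1118 (26.3%, all windows 23.0%), and above GOM in 2.73% (all windows 3.11%) and below it in 9.55% (all windows 10.0%). The counts in the loci depended on single libraries, and the shares of all windows in these fits are not given here. Between MAD and GOM they were 115 and 283 without GOM of sheep 1 or 2, and 256, 313 and 252 without MAD of sheep 1, 2 or 3. Between RAD and MAD they were 210 and 284 without MAD of sheep 1 or 3, and 184 and 272 without RAD of sheep 2 or 3. MAD enters both comparisons, so the 2 sets of windows are not independent.

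At 123 of 213 loci no window differed between MAD and GOM and at 130 none between RAD and MAD. At 16 and 13 loci 50% or more of the windows passed, and these held 202 of the 470 and 203 of the 446. The remaining 268 and 243 lay in 74 and 70 other loci. Stretches of similar length outside the loci were not counted in this way, and of all windows 9.51% and 8.89% passed. The counts per locus therefore do not show whether windows that passed lay closer together in very long TADs than elsewhere. On chromosome 14 from 20660001 to 22960000, 21 of 22 windows were higher in MAD than in GOM and 21 lower in RAD than in MAD, and on chromosome 10 from 75340001 to 77500000 it was 20 and 19 of 21. At the chromosome 3 locus from 42040001 to 44340000 all 22 windows were lower in RAD than in MAD, and 11 were higher in MAD than in GOM. The chromosome 14, 10 and 3 loci had been picked for their depot differences in the same index. Their high counts follow from that choice and are no separate result. At the lowest locus, on chromosome 24, 2 and 1 of 18 windows passed, and at the chromosome 20 and chromosome 7 loci of -6.27 none did.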

How the data were processed

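Reads of the 9 sheep Hi-C libraries were mapped by the authors with BWA and filtered with Juicer. The deposited A-B index is a score with a sign for every 20-kb bin and library, used here without scaling between libraries. The authors called TADs from the insulation score of KR-normalized 20-kb maps of merged replicates, and deposited these as positions, used here from 1. All 132797 bins of 26 chromosomes had a value. Contact matrices were not used here, so the depth of each library is unknown in these values. Library pairs correlated at 0.945 to 0.972 across bins, which are not independent, and none were identical.

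Groups and animals came from the labels, where the same sheep number marks the same animal in each depot. Deviations from the depot means correlated at 0.183 on average where the animal was shared (9 pairs, -0.0304 to 0.440). Between MAD and RAD these correlations were 0.440, 0.414 and 0.428 in sheep 1, 2 and 3, and in pairs with GOM -0.0304 to 0.222. Where the animal was not shared the mean was -0.0916. Centring on the mean of 3 libraries largely fixes that value from the first, so it is no separate comparison. Models had no animal term, and the animal as a block was an alternative.

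A TAD's index was its mean over bins. Classes were at least 1.5 Mb and 360 to 700 kb. Exact sign-flip and permutation tests ran over libraries in Python 3.11.15 (numpy 2.4.6, scipy 1.17.1, pandas 2.3.3), limma 3.58.1 with a variance trend in R 4.3.3 and figures in matplotlib 3.10.9. Both the limma fit and the overlap rules were tested on simulated data. Ends matched within 1 bin, reciprocal overlap was at least 80%, and intervals are 95% Wilson intervals. Alternatives covered lengths, tolerances, scaling, the ends of TADs, window size and leaving out each library in turn. The members, classes and lists were chosen with earlier results of these data known.

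Regions named were the longest 5 TADs per depot, the longest 10 with both ends in all 3 depots, up to 5 per depot that alone divides them, and the loci with the 3 highest, 3 lowest and 3 most variable depot means. Sheep genes have no position on this build in the sources used here, so genes, expression and sequences of these TADs were not analysed here.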

Additional observations from a re-analysis of the deposited data

How the results depend on the processing

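The lower index of very long TADs kept its direction under all 20 alternatives, from -3.97 to -1.04, the last in units of the SD of the library. With the animal as a replicate block the difference was -3.48 with an exact p = 0.25, the smallest that 3 animals allow, which is a limit of that design. With the animal in the window model, the counts in very long TADs went from 470, 0 and 446 to 644, 0 and 609. The order is MAD and GOM, RAD and GOM, and RAD and MAD. With the animal these counts were 15.2%, 0.0% and 14.3% of the windows there, against 13.1%, 0.0% and 12.4% of all windows. Leaving out 1 library of the depots compared gave 115 to 487 windows between MAD and GOM and 184 to 471 between RAD and MAD, and leaving out 1 of the third depot kept each count within 1.5 times. The shares of all windows in these fits are not given here. No bin passed at 20 kb between MAD and GOM or between RAD and MAD by limma (0 in very long TADs). Of the 22090 bins in very long TADs, 3825 and 3816 (17.3% in both) had an unadjusted p under 0.05. Of all bins 16.1% and 16.9% did. With distinct TADs as features, 53 and 72 of 407 very long TADs passed (13.0% and 17.7%), against 12.5% and 12.8% of all 9369 TADs. Relative to mid-length TADs the difference of RAD minus GOM turned to 0.00343. Both ends were found again for 20.2%, 54.7% and 57.4% of very long TADs at tolerances of 0, 2 and 5 bins, 43.1% for TADs of at least 2 Mb, 57.1% for those in A and 83.9% for single ends. Reciprocal overlap held for 96.6% at 50% (mid-length TADs 95.1%, so the order turned), 59.2% at 90%, 65.1% for at least 2 Mb and 75.5% for those in A. Division fell from 55.8% at 0 bins to 33.0% and 31.5% at 2 and 5 bins, and was 33.5% from 1.2 Mb and 43.1% from 2 Mb. With 1 library left out, the step of the dividing depot minus that of the others was -0.0254 to 0.0650 for GOM, which changes sign, -0.172 to -0.0897 for MAD and 0.0138 to 0.174 for RAD. The steps ranked RAD, GOM, MAD at the boundaries of each depot, so these signs do not set the dividing depot apart. Merged maps allow no such range for overlaps. The cause of these shifts was not tested. Tests of gene expression were not run.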
